A study of Mus musculus with 16 samples.

Results

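Liver RNA from 8 mouse samples carrying either of 2 mutations of Terc, the gene of the telomerase RNA, was compared with that from 8 wild types, to ask which changes the mutations have in common. The 16 libraries are all the samples of the series and were taken by their labels: 4 AUG livers with the genotype mTERC CUG/AUG, 4 del7 livers with the genotype mTERC 29_35del, a deletion of 7 nucleotides from position 29 to 35, and 4 wild types of each line, called AUG_WT and del7_WT. The genotype of both wild-type groups is given as WT, and the treatment of all 16 as none. The comparison was made with line as a covariate, so that each mutant was set against the wild types of its own line, and it was repeated with 15 libraries, without AUG_WT replicate 1. The labels leave the meaning of CUG/AUG unstated (an exchanged codon, or one allele of each kind), and give no age, sex or strain. They also do not say that the replicates of a group came from different animals, so the p-values cover only the spread among these libraries, some of which may be technical.

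Telomerase adds telomeric repeats to chromosome ends, with the Terc RNA as its scaffold and template and the protein TERT as its enzyme. The same RNA also carries an open reading frame for a small protein, TERP, which has been linked to autophagy, the degradation of cell contents in lysosomes, and to survival of stressed cells. Autophagy is set in part by AMPK and mTOR, kinases that sense energy and amino acids. Terc itself is not analysed here, so the genotypes were not checked against its reads.

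Total gene counts ranged from 7714058 to 14629022, and all libraries differed by more than sampling noise, with a chi-square per gene of at least 8.60 between any 2. The share of albumin, the most abundant plasma protein, was 4.37% to 11.5% of counts, and all 25 genes of a list of proteins secreted by hepatocytes passed the count filter, so the defining markers of the liver label were present. AUG_WT replicate 1 stood apart: it had the lowest albumin share, 4.37%, the largest fraction of reads lying outside annotated genes, 35.0%, and a score of 126.1 on the first principal component, where no other library exceeded 10.7. Library properties differed between mutants and wild types by less than the spread between libraries. Albumin took 8.47% ± 0.56 of mutant and 8.24% ± 2.11 of wild-type counts (SD over 8 libraries each, p = 0.772 in a two-sided exact permutation test within lines). The exact permutation p was 0.858 for the mitochondrial share, 0.947 for the share of multimapping reads, 0.504 for the share outside genes and 0.771 for the total, and each was 0.947 after Benjamini-Hochberg adjustment over the 5 properties.

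Among 14421 genes tested, 2 rose and 0 fell in the mutants at an adjusted p under 0.05 in edgeR's quasi-likelihood test, 0.0139% and 0% of genes. Rps3a3 and Hist1h2al, both annotated as processed pseudogenes on chromosome 13, had counts almost only in AUG livers. Without AUG_WT replicate 1, where 14582 genes were tested, the same 2 genes rose (0.0137%) and 0 fell. At an unadjusted p under 0.05, 159 genes were higher (1.1%) and 337 lower (2.34%) with all libraries, and 648 were higher (4.44%) and 556 lower (3.81%) with 15, which is 3.44% and 8.26% of genes in all. The median standard error of the common log2 fold change was 0.157, and the median half-width of its unadjusted 95% interval was 0.333. For a gene of median precision a smaller change could not be told from zero, and the adjusted threshold needed a larger change than that.

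The transcripts of both genes are near-identical to those of other genes, and reads are told apart only by the few bases that differ. Rps3a3 matches Rps3a1, the gene of a protein in the small subunit of the ribosome, over 795 nucleotides with 9 mismatches (98.9% identity), and Hist1h2al matches the histone H2A gene Hist2h2aa1 over 339 nucleotides with 2 mismatches (99.4% identity). The pseudogenes Rps3a2 (791 nucleotides, 8 mismatches) and Gm5586 (795 nucleotides, 17 mismatches) also match Rps3a3. Their counts are not reported here. A coding stretch of 60 nucleotides with the most mismatches is shown for each pair, because it holds the kind of difference on which a count depends. The sequences are from GENCODE M21 on GRCm38, 5′ to 3′, and capitals mark mismatched bases. They run from nucleotide 334 to 393 of the coding sequence of Rps3a1 and from 160 to 219 of that of Hist2h2aa1, with the pseudogenes aligned to these.
Rps3a1: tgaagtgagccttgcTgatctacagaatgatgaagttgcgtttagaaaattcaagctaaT
Rps3a3: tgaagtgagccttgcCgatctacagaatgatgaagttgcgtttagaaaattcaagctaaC
Hist2h2aa1: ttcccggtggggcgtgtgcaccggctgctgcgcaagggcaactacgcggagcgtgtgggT
Hist1h2al: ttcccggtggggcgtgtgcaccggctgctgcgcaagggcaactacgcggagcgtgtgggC
Within these 60 nucleotides, 2 bases separate the Rps3a pair and 1 base separates the histone pair, so counts of all 4 genes are uncertain.

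Rps3a3 (ENSMUSG00000059751.8) had 570, 374, 485 and 622 counts in the 4 AUG livers, and no more than 4 counts in any of the other 12 libraries. The 4 del7 livers together had 2 counts, so the del7 mutants lay with the wild types and not with the AUG mutants. Over 8 mutants there were 2053 counts and over 8 wild types 9, a ratio of 235 per scaled library size (95% exact interval 124 to 515, counting error only). The fitted common log2 fold change was 7.66 (SE 0.53, edgeR adjusted p = 1.87e-06) with all libraries and 7.95 (SE 0.49, edgeR adjusted p = 3.17e-07) with 15. The mean of the effects within the 2 lines, which gives the lines equal weight, was 4.37 for Rps3a3 (edgeR adjusted p = 1.00), so this call was lost when del7 counted as much as AUG.

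The partner Rps3a1 (ENSMUSG00000028081.7, chromosome 3) moved the other way in the same 4 livers. It had 18.8, 14.3, 17.7 and 16.0 CPM (counts per 1e+06, scaled by TMM) in AUG, 115, 71.3, 83.7 and 106 in AUG_WT, 84.0, 72.6, 95.8 and 80.0 in del7, and 65.7, 74.3, 84.4 and 78.6 in del7_WT. All 4 AUG livers lay below every other library, and the 2 del7 groups overlapped. The sum of Rps3a1 and Rps3a3 was 63.1 ± 6.74 CPM in AUG, 94.3 ± 20.2 in AUG_WT, 83.2 ± 9.76 in del7 and 75.8 ± 7.83 in del7_WT (SD, 4 libraries each). Rps3a1 was the 1 gene whose effect differed between the lines at an edgeR adjusted p under 0.05 (0.00693% of genes). Its log2 difference was -2.63 (edgeR adjusted p = 3.47e-05), and at 0.134 its effect in del7 was within its standard error of 0.146. The differences of Rps3a3 (7.23) and Hist1h2al (7.12) were larger but did not pass in edgeR (adjusted p = 0.864 for each). That of Rps3a3 passed in DESeq2 (adjusted p = 0.00381) and in limma voom (adjusted p = 0.00231). The common log2 fold change of Rps3a1, -1.16, did not pass (SE 0.37, edgeR adjusted p = 0.999). Under equal weighting of the lines, however, Rps3a1 was the 1 gene that fell.

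Hist1h2al (ENSMUSG00000091383.3) had 47, 25, 69 and 71 counts in AUG and 0 or 1 in each of the other 12 libraries. The 4 del7 livers together had 1 count, as did their 4 wild types. The pooled counts were 213 in mutants and 2 in wild types, a ratio of 110 (95% exact interval 30.0 to 913, counting error only), and the fitted log2 fold change was 5.98 (SE 0.78, edgeR adjusted p = 0.00689). Hist1h2al passed in 22 of 30 alternatives. It did not pass without AUG_WT replicate 2 (edgeR adjusted p = 0.0570), replicate 4 (edgeR adjusted p = 0.0687) or replicates 1 and 2, nor in limma voom with or without quality weights, without the line covariate, with a replicate block of line by number, or when the lines were weighted equally (edgeR adjusted p = 1.00). Its partner Hist2h2aa1 had 0 counts in all 16 libraries. Hist2h2aa2 and the transcript Gm20634 matched Hist1h2al equally well, over 339 nucleotides with 2 mismatches. Gm20634 had 0 pooled counts in AUG, 2 in AUG_WT, 5 in del7 and 4 in del7_WT, and Hist2h2aa2 had 1, in del7 alone. Reads that fit several copies equally well may be missing from such counts, so a count of 0 does not show that a gene was silent.

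B3galnt1 (ENSMUSG00000043300.3, chromosome 3) was the gene next to the threshold and had a large positive value in both lines. It encodes a glycosyltransferase that completes the glycolipid globoside. It had 2.58, 4.63, 3.04 and 6.23 CPM in AUG, 1.05, 0.758, 0.682 and 0.718 in AUG_WT, 1.90, 5.49, 6.05 and 4.60 in del7, and 2.38, 1.11, 2.08 and 0.537 in del7_WT. AUG and AUG_WT did not overlap, whereas del7 replicate 1 lay below del7_WT replicates 1 and 3. The mutant median was 4.62 CPM and the wild-type median 0.905 CPM. The common log2 fold change was 1.93 (SE 0.33, 95% interval 1.24 to 2.61), made of 2.33 in AUG (SE 0.46) and 1.55 in del7 (SE 0.44), and the effects did not differ detectably between the lines (difference 0.78, edgeR adjusted p = 0.885).

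The edgeR adjusted p of B3galnt1 was 0.101 with 16 libraries and 0.148 with 15, so it did not pass. With 15 libraries it passed in 3 of 28 alternatives. With all 16 libraries it passed in DESeq2 (adjusted p = 9.19e-05), and in edgeR without del7 replicate 1 (adjusted p = 0.0141) or without del7_WT replicate 1 (adjusted p = 0.0434). Over 30 alternatives its log2 fold change stayed between 1.78 and 2.12. It rests on 6 to 78 counts per library, and no transcript similar to it was found in the annotation.

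**Figure D1:**
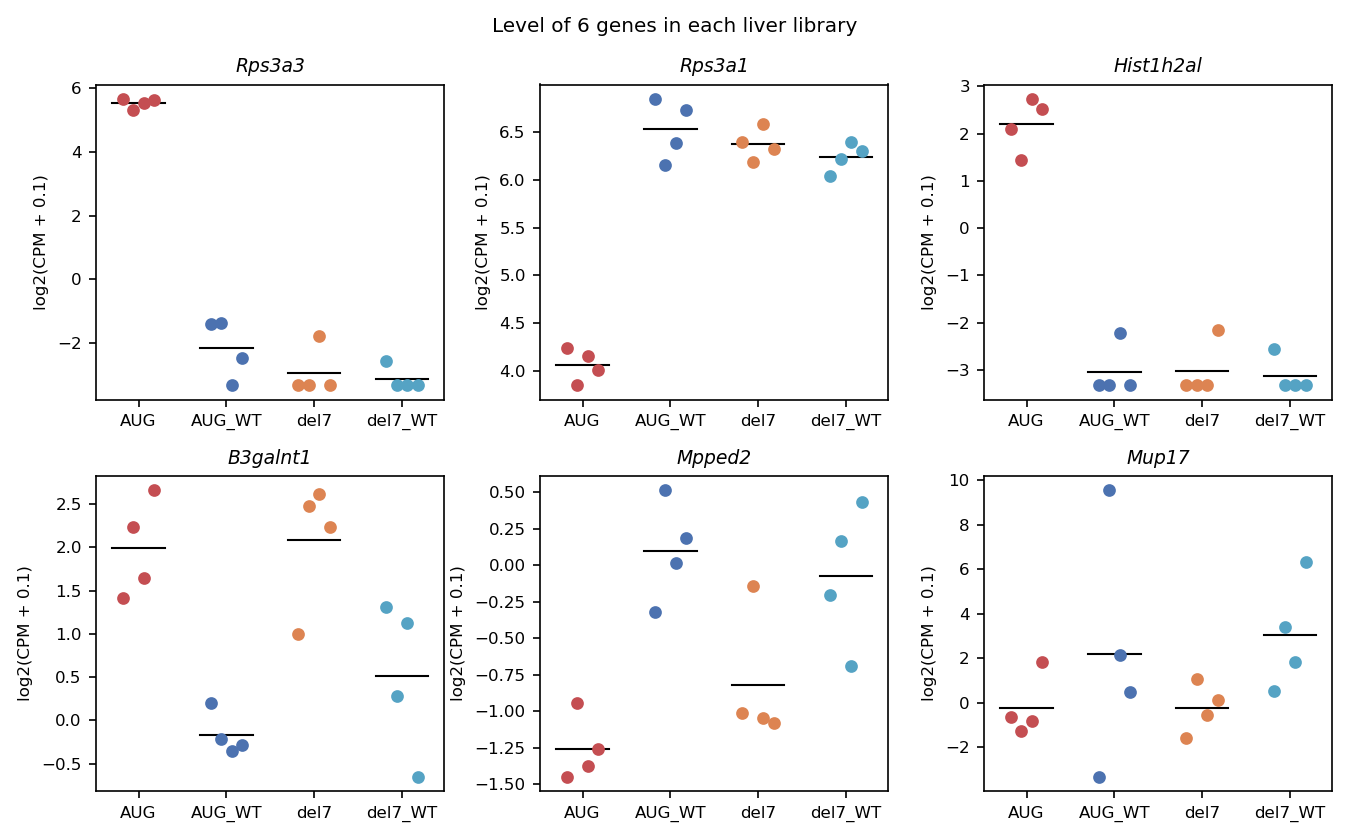
Level of 6 genes in each of the 16 libraries as log2(CPM + 0.1), 1 point per library and a bar at the mean of each group of 4. Rps3a3 and Hist1h2al are high in the 4 AUG libraries alone, Rps3a1 is low in the same 4, B3galnt1 is high and Mpped2 low in most mutants of both lines, and for Mup17 single wild-type libraries stand far above the rest.

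No gene separated all 8 mutants from all 8 wild types in either direction. A weaker rule, that the 4 mutants of each line lie on the same side of their own 4 wild types, was met by 2 genes with higher levels (0.0139%) and 0 with lower levels, while 8 genes met it in opposite directions (0.0555%). Ssx2ip, which encodes a protein of centrosomes and cell junctions, ranged from 9.74 to 14.8 CPM in the mutants (median 11.4) and from 7.61 to 10.2 in the wild types (median 9.10). Its log2 fold change was 0.38 in AUG and 0.36 in del7. Asb8, an adaptor of ubiquitin ligases, ranged from 21.5 to 23.7 CPM in the mutants (median 22.4) and from 17.5 to 21.7 in the wild types (median 19.0), with 0.25 in AUG and 0.23 in del7. Neither passed, each with an edgeR adjusted p of 0.999 for the common effect (0.37, SE 0.09, and 0.24, SE 0.06).

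The other genes with the smallest p and the same sign in both lines gave modest values, none of which passed. Mpped2, a metallophosphoesterase gene, had the most negative value apart from Mup17, with 0.267 to 0.807 CPM in the mutants (median 0.379) and 0.519 to 1.33 in the wild types (median 0.966), a log2 fold change of -1.20 (standard error 0.27, edgeR adjusted p = 0.999) from 3 to 14 counts per library. The 2 ranges overlapped only through del7 replicate 2 and the lowest wild types. On the higher side stood Tcf24 (0.92), the macrophage receptor gene Adgre4 (0.78), Csrnp2 (0.55), Ubtd1 (0.48) and Ranbp6 (0.31). On the lower side stood Carmil1 (-0.85), Fam160a1 (-0.69), the fatty acid transporter gene Slc27a1 (-0.62), the glucocorticoid-induced chaperone gene Fkbp5 (-0.53), BC065397 (-0.52), Ppp1r10 (-0.47), Crtap (-0.41), whose product takes part in collagen modification, and Sesn3 (-0.37). For each of these 13 genes the edgeR adjusted p was 0.999.

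**Figure D2:**
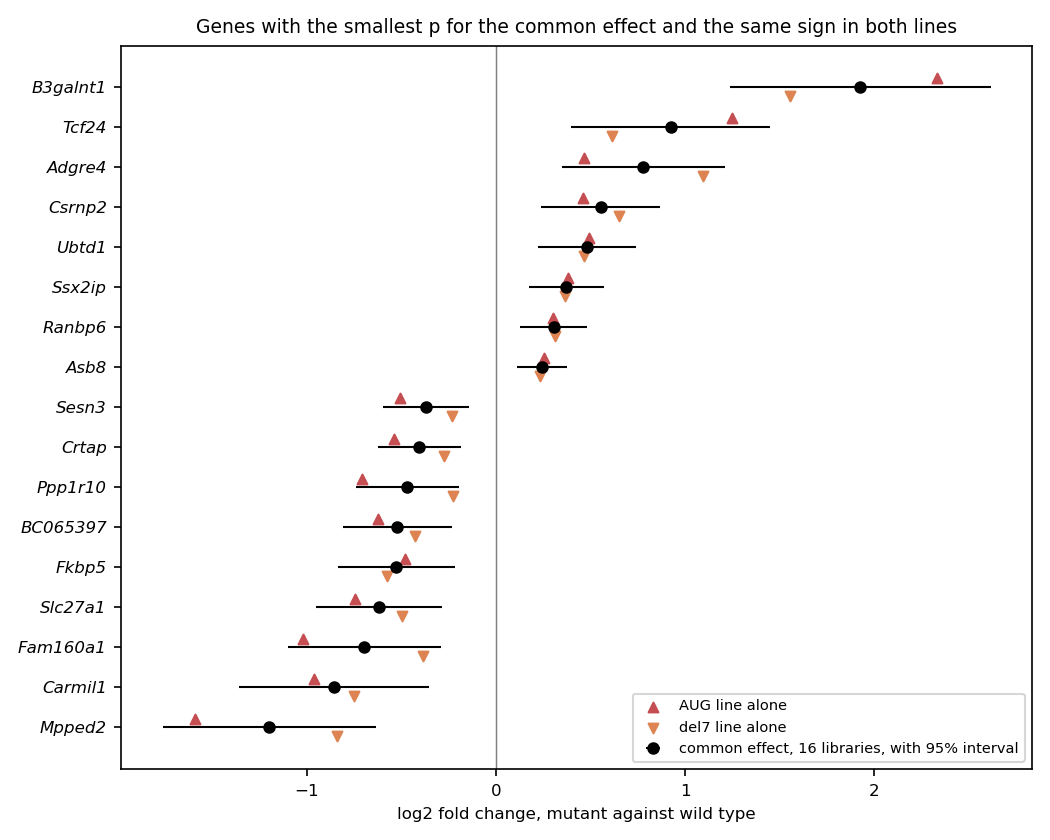
Common log2 fold change, mutant against wild type, of 17 genes with the smallest p and the same sign in both lines (black points, with 95% intervals, 16 libraries), and the fold change within the AUG line and the del7 line. Rps3a3, Hist1h2al and Mup17 were named by the same rule and are left out because their scale is larger. The estimates of the 2 lines lie on the same side of zero for every gene, by the rule, and B3galnt1 at 1.93 is the farthest out.

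Major urinary protein genes, whose products hepatocytes secrete under the control of growth hormone, had large negative values. For Mup17, Mup9 and Mup18 the size of these values depended on single wild-type libraries. Mup17 ranged from 0.237 to 3.43 CPM in the mutants (median 0.555) and from 0 to 745 in the wild types (median 3.91). AUG_WT replicate 2, with 745 CPM, and del7_WT replicate 4, with 80.7 CPM, stood far above the rest, and the ranges overlapped at their low ends. The log2 fold change was -6.15 with a standard error of 1.58 (edgeR adjusted p = 0.999). Over 30 alternatives it stayed between -6.72 and -2.59 and did not pass in any. Mup9 had 579 CPM in AUG_WT replicate 2 and at most 4.47 CPM in the other 15 libraries. For Mup16, 4 wild types lay above every mutant. It ranged from 2.49 to 14.2 CPM in the mutants (median 4.23) and from 0.0702 to 88.8 in the wild types (median 17.5), and its log2 fold change was -2.16 (SE 0.72) with 16 libraries and -2.32 (SE 0.53) with 15. It passed in neither edgeR fit (adjusted p = 0.999 and 0.344) and fell in DESeq2 with 15 libraries (adjusted p = 0.0326). Mup18 had -4.02 (SE 1.28) and did not pass. It had 204 CPM in AUG_WT replicate 2 and at most 16.5 CPM in the other 15 libraries. Over 30 alternatives its value moved between -4.78 and -0.95. Mup17 shares 98.7% of its transcript sequence with Mup11, Mup9 99.1% with Mup8 and Mup16 99.4% with Mup19, so counts within the family are uncertain.

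The list of growth hormone dependent genes had 7 higher and 12 lower members of 19 tested, and 0 passed. Its median log2 fold change was -0.06, beside -0.02 over all genes. Among drug-metabolizing enzymes, Cyp3a44 ranged from 33.1 to 280.2 CPM in the mutants (median 138) and from 30.1 to 782 in the wild types (median 301), and its log2 fold change was -1.37 (SE 0.53, edgeR adjusted p = 0.999). Cyp7a1, the rate-limiting enzyme of bile acid synthesis, ranged from 194 to 692 CPM in the mutants (median 486) and from 94.9 to 442 in the wild types (median 197). Its value was 0.83 in the common fit, 0.82 in AUG and 0.85 in del7 (SE 0.38 for the common value, edgeR adjusted p = 0.999), and the groups overlapped. The transporter gene Slco1a1 had a value of -3.15 (-4.93 in del7 and 0.33 in AUG) that rested on del7_WT replicate 1. That library had 91.7 CPM and the other 15 at most 6.49 CPM, and the value moved between -4.26 and -0.96 over 30 alternatives.

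Across the 14421 genes the AUG and del7 effects did not run together. Their Pearson correlation over genes was -0.13 (Spearman -0.15), and the sign was the same in 44.8% of genes. Without AUG_WT replicate 1 the correlation was 0.19 (Spearman 0.23) and the sign was the same in 58.3% of 14582 genes. Genes are not independent replicates, the libraries of a line share one control group, and the fitted values share the scaling, so these figures describe the libraries and carry no p. Of 213 genes with an unadjusted p under 0.01 in AUG (1.48%), 88 had the same sign in del7. Without the replicate it was 127 of 189 (1.3%). Of 40 such genes in del7 (0.277%), 16 had the same sign in AUG, and without the replicate 126 of 165 (1.13%). The common effect itself kept its sign between the 2 fits in 74.5% of genes, so for the others 1 library of 16 set the direction.

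**Figure D3:**
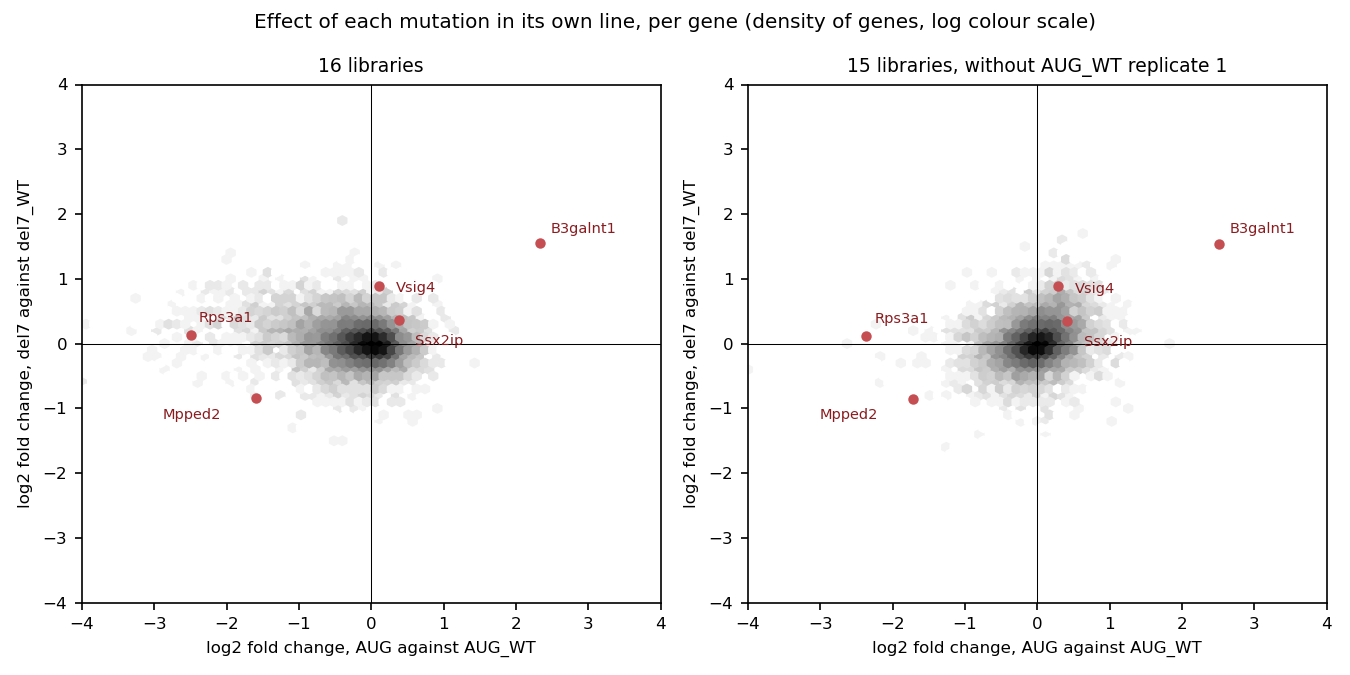
Log2 fold change of each gene in the AUG line (horizontal) against the del7 line (vertical), as the density of genes on a log colour scale, with values beyond 4 drawn at the edge. With 16 libraries the cloud stretches to the left on the AUG axis, with a correlation of -0.13, and with 15 libraries it tilts slightly upward, with a correlation of 0.19. B3galnt1 lies at the upper right and Mpped2 at the lower left in both.

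The pathways linked to TERP held no gene that passed. Of 35 genes of the autophagy machinery, all tested, 14 were higher and 21 lower in the common effect, with a median log2 fold change of -0.02, the same as the median of all genes, where 43.5% were higher. None of the 35 had an unadjusted p under 0.05, beside 3.44% of all genes. The smallest p among them belonged to Rubcn, a brake on autophagosome maturation (-0.31, SE 0.17, edgeR adjusted p = 0.999), and, among those higher, to Atg16l1, which helps to attach LC3 to membranes (0.07, SE 0.07). Rubcn ranged from 24.9 to 30.2 CPM in the mutants (median 28.3) and from 26.7 to 71.2 in the wild types (median 30.2). The 71.2 was AUG_WT replicate 1, and without it the value was -0.09. Without that library 7 autophagy genes were higher and 28 lower, with a median of -0.07. This is 20% higher, beside 49.4% of all genes tested in that fit. Map1lc3b, which encodes the main LC3 protein of autophagosomes, then had -0.15 (SE 0.07, edgeR adjusted p = 0.601). It was the 1 member with an unadjusted p under 0.05 (3.81% of all genes were lower at that p). With all libraries its value was -0.10 (SE 0.08).

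Of 28 lysosomal genes 13 were higher with all libraries, with a median of -0.01. Without the replicate 17 of 28 were higher, whereas most autophagy genes were lower in that fit. Among 30 AMPK and mTOR genes 12 were higher, the median was -0.04, and the 3 with an unadjusted p under 0.05 were all lower (2.34% of all genes were lower at that p). These were Sesn3, Sesn2 and Castor1, all of which encode restraints on mTOR complex 1. Sesn3 ranged from 51.7 to 74.7 CPM in the mutants (median 60.9) and from 65.8 to 107.8 in the wild types (median 78.6), with a log2 fold change of -0.37 (SE 0.11), and -0.30 with 15 libraries. Sesn2 was -0.21 (SE 0.09). None of the 3 passed, since the edgeR adjusted p was 0.999 for each.

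Of 21 genes for telomerase and telomere binding proteins, 6 were higher and 15 lower, with a median of -0.04. Without the replicate 12 were higher, with a median of 0.04. Terf2ip, which encodes RAP1 of the shelterin complex on telomeres, was the 1 member with an unadjusted p under 0.05 (1.1% of all genes were higher at that p). It ranged from 13.2 to 18.9 CPM in the mutants (median 16.4) and from 11.4 to 16.5 in the wild types (median 13.5), with a log2 fold change of 0.22 (standard error 0.10, edgeR adjusted p = 0.999). With 15 libraries Terf2ip (0.27), Pot1b (0.45) and Terf2 (0.19), whose products all bind telomeres, had an unadjusted p under 0.05 and a positive value (4.44% of all genes did), and 0 of 21 passed. Apoptosis genes had 7 of 25 higher with a median of -0.11, and 16 of 25 higher with a median of 0.04 without the replicate. In the lists for the p53 response and for DNA damage, 3 of 18 and 8 of 24 were higher, against 11 of 18 and 15 of 24 without it.

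In the repeat without AUG_WT replicate 1, which was left out because it stood apart in these same data, B3galnt1 and Icam1 had the smallest p after the 2 genes that rose. Icam1, an adhesion molecule induced by inflammatory signals, ranged from 16.8 to 28.6 CPM in the mutants (median 23.8) and from 13.6 to 18.2 in the 7 other wild types (median 15.3). Only 1 mutant, AUG replicate 4, lay within the wild-type range, while AUG_WT replicate 1 stood at 79.8 CPM, above every mutant. The log2 fold change of Icam1 was 0.58 with 15 libraries (SE 0.10, edgeR adjusted p = 0.148), 0.61 in AUG and 0.55 in del7, and 0.04 with 16 (SE 0.33).

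With 8 mutants against 7 wild types, 4 genes had no overlap on the higher side (0.0274%) and 3 on the lower side (0.0206%). Among the former, Tlr13, a receptor for bacterial RNA, ranged from 5.35 to 11.8 CPM in the mutants and from 3.16 to 5.23 in the 7 wild types, with 16.2 in the library left out, and its value (log2 fold change) was 0.78 (SE 0.17, edgeR adjusted p = 0.289). Ifngr1, a chain of the interferon gamma receptor, ranged from 20.6 to 25.7 CPM against 17.2 to 20.5, with 41.3 in the library left out, and had 0.27 (SE 0.07, edgeR adjusted p = 0.346). The intronic transcript Gm29488 had 0.52. On the lower side were Dynlrb1, a light chain of the dynein motor (median 20.9 CPM in the mutants and 26.2 in the 7 wild types, log2 fold change -0.39), Phyhd1 (-0.48) and the antisense transcript AC154912.1 (-0.74). Within lines, 4 mutants apart from their 4 or 3 wild types in the same direction in both, 14 genes were higher (0.096%) and 9 lower (0.0617%).

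Other genes on the higher side with a small p in the 15-library fit were Cd200r1 (0.93), Adgre4 (0.92), Lpcat2 (0.87) and Nfam1 (0.74), which are known to be expressed in myeloid cells, each with an edgeR adjusted p from 0.210 to 0.289. On the lower side were Sucnr1, a receptor for succinate (-0.86), Acad12, of the acyl-CoA dehydrogenase family (-0.81), Mageh1 (-0.65) and the chemokine gene Ccl9 (-0.48). By the rule that chose these genes, each value had the same sign in AUG and del7. For Cd200r1 the line values were 0.79 and 1.03, and for Sucnr1 -0.88 and -0.84.

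Kupffer cells are the resident macrophages of the liver. Without AUG_WT replicate 1, 21 of 22 members of the list of Kupffer cell and macrophage genes were higher in the mutants, 16 of them at an unadjusted p under 0.05 (4.44% of all genes were), and the median log2 fold change was 0.52 (0.36 in AUG and 0.72 in del7). The median over all genes was -0.0021. No member passed. With all 16 libraries 19 of 22 were higher, 2 of them at an unadjusted p under 0.05 (1.1% of all genes), and the median was 0.18, with -0.39 in AUG and 0.73 in del7. Over 28 alternatives of the 15-library fit, 13 to 17 members had an unadjusted p under 0.05 and a positive value. Members of a list can vary together, so they are not independent observations. The comparison with all genes therefore carries no p, here and for the lists below. Of the 15 libraries, AUG replicate 2 was highest and del7_WT replicate 2 lowest for Cd5l, Csf1r, Vsig4, C1qa, C1qb and C1qc. Marco and Timd4 were highest in del7 replicate 3. The list was chosen with earlier results of these data known, and the library left out had the highest level of it. In bulk liver, a larger number of cells of a type and more RNA per cell cannot be told apart.

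The list's level in a library, the mean log2 CPM of its members after centring each gene, ran from -0.51 to 0.62 in the mutants and from -0.84 to -0.01 in the 7 wild types. These ranges overlapped, since AUG replicates 1 and 4 and del7 replicate 4 lay among the wild types, and AUG_WT replicate 1 had the highest level of all, 1.25. Among its members, Cd5l, a secreted protein of tissue macrophages, ranged from 87.5 to 248 CPM in the mutants (median 144) and from 53.9 to 94.2 in the 7 wild types (median 79.9), with a log2 fold change of 0.82 (standard error 0.20, edgeR adjusted p = 0.344) and 215 CPM in the library left out. The scavenger receptor gene Marco had 1.89 (SE 0.56), the phosphatidylserine receptor gene Timd4 0.84 (SE 0.27), the complement receptor gene Vsig4 0.61 (SE 0.17) and the growth factor receptor gene Csf1r 0.55 (SE 0.14). The 3 chains of complement C1q stood close together at 0.49 for C1qa, 0.52 for C1qb and 0.52 for C1qc. Clec4f, a lectin found on Kupffer cells, had a smaller value of 0.33 (SE 0.15).

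Most members of the lists of other immune cells were higher as well, except for B cells and for platelets and mast cells. Without the replicate 6 of 6 tested neutrophil genes were higher (median 0.71), 16 of 18 monocyte and dendritic cell genes (median 0.45) and 11 of 11 T and natural killer cell genes (median 0.36), against 10 of 20 B cell and plasma cell genes (median 0.02) and 2 of 4 tested platelet and mast cell genes (median -0.03). Of these, 3 neutrophil, 3 monocyte and dendritic and 1 T and natural killer cell gene were higher at an unadjusted p under 0.05 (4.44% of all genes). Only 6 of 16 listed neutrophil genes and 11 of 22 listed T and natural killer cell genes were tested. The level of the latter list was 1.17 in AUG replicate 2 and 0.54 in del7 replicate 2. In the other mutants it was at most 0.053, against -1.04 to 0.048 in the 7 wild types. For monocyte and dendritic cell genes AUG replicate 2 stood at 0.85 and the next mutant at 0.18, against -0.49 to -0.11. For neutrophil genes AUG replicates 2 and 3 and del7 replicates 1 and 2 stood at 0.47 to 1.22. The other mutants were at -0.25 or below, against -0.72 to -0.15 in the 7 wild types. S100a9 and S100a8, abundant proteins of neutrophils, had 1.54 (SE 0.47) and 1.37 (SE 0.43). With all 16 libraries these were 0.57 (SE 0.66) and 0.42 (SE 0.61). Both had low levels, at most 4.44 and 3.37 CPM in the mutants. The part of these immune cells in the values of single genes was not tested. The cytokine and NF-kB list had 21 of 22 members higher, 9 at an unadjusted p under 0.05 (4.44% of all genes), with a median of 0.32, 0.19 in AUG and 0.36 in del7. With all 16 libraries it had 9 of 22 higher and a median of -0.07. Tnf, the inflammatory cytokine, shows the dependence: it had 0.288 to 1.37 CPM in the mutants, 0.0798 to 0.474 in the 7 wild types and 9.54 in AUG_WT replicate 1, with a log2 fold change of 1.30 (SE 0.38) without that library and -0.57 (SE 0.83) with it. Ccl2, a chemokine that draws monocytes, had a positive value in both fits, 0.84 (SE 0.31) and 0.97 (SE 0.32).

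**Figure D4:**
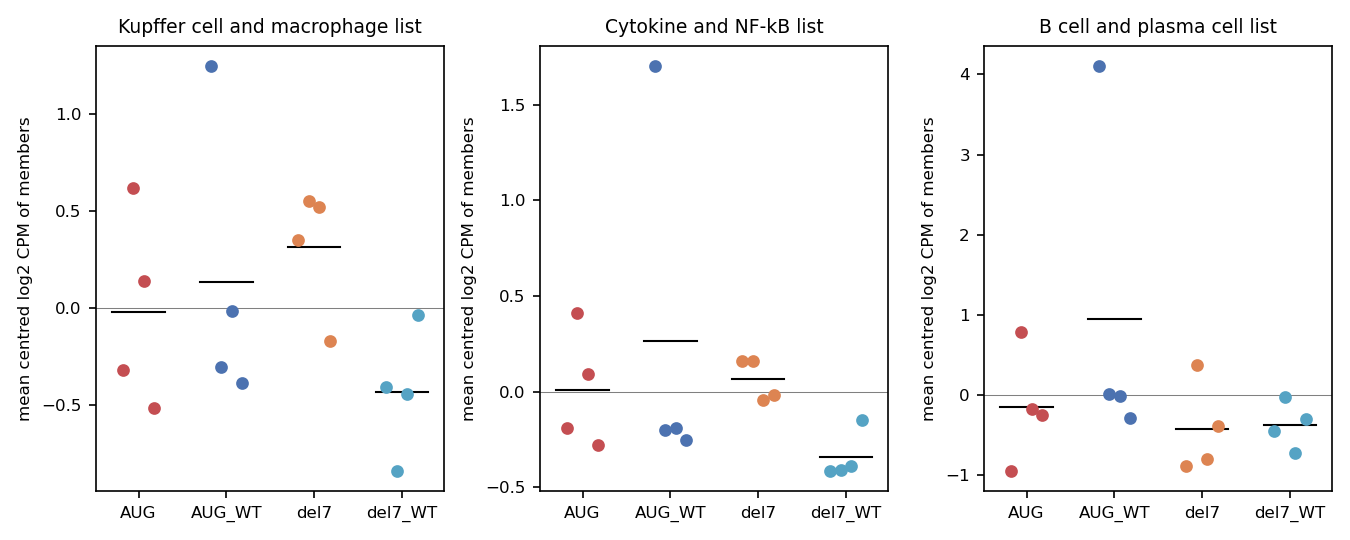
Level of 3 gene lists in each library (mean centred log2 CPM over members), 1 point per library and a bar at the group mean. AUG_WT replicate 1 is the highest library in all 3 panels, at 1.25 for the Kupffer cell list, and without it most mutants lie above most wild types in the first 2 panels but not in the B cell panel.

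Medians of several lists of hepatocyte functions changed sign with the same library. Of 42 lists with at least 3 tested members, 20 had medians of opposite sign in the 2 fits, and in 0 lists did a member pass in either. Over all genes, 43.5% were higher with 16 libraries and 49.4% with 15. Nuclear genes of oxidative phosphorylation were higher in 28 of 35 with 16 libraries (median 0.04) and in 7 of 35 with 15 (median -0.06). Fatty acid oxidation genes went from 18 of 29 (0.03) to 5 of 29 (-0.11), and lipoprotein genes from 10 of 18 to 3 of 18 (-0.11). The mitochondrially encoded genes were higher in 1 of 7 and in 0 of 7, with medians of -0.13 and -0.24. Acute phase genes, which the liver makes in inflammation, were higher in 12 of 20 (0.04) and in 15 of 20 (0.18). Saa1, a main acute phase protein, had 1.29 (SE 0.63) and 1.75 (SE 0.65). The cell cycle list had 0 of 17 higher with a median of -0.82 and then 10 of 17 with 0.05, the B cell and plasma cell list 1 of 19 with -1.48, and the interferon list 2 of 33 with -0.23 and then 13 of 33 with -0.05. Within-line medians had opposite signs in 28 lists with all libraries and in 15 without the replicate.

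**Figure D5:**
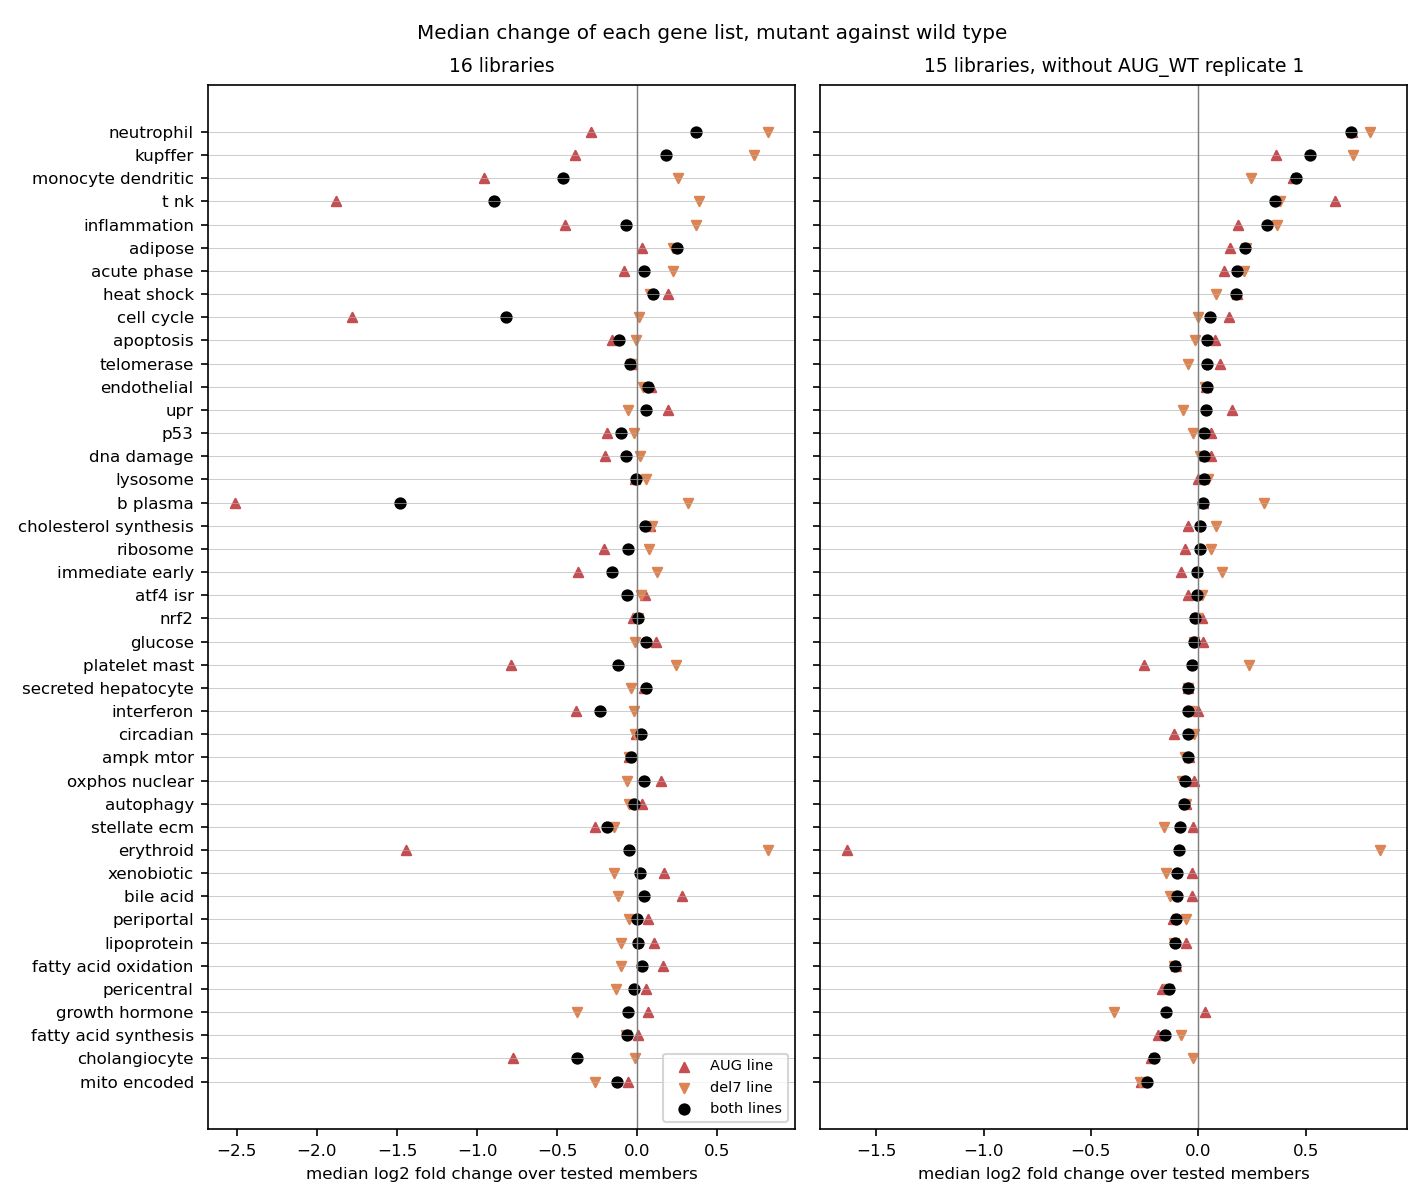
Median log2 fold change, mutant against wild type, over the tested members of 42 gene lists, for both lines together and for each line, with 16 libraries (left) and 15 (right). The lists are ordered by the 15-library median, and the Kupffer cell list, at 0.52 on the right, stands at 0.18 on the left, where the AUG and del7 medians lie on opposite sides of zero.

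Terc itself lies on chromosome 3. Of 14421 tested genes 766 were on that chromosome (5.31%), as were 6 of 79 genes with an unadjusted p under 0.01 (7.60%) and 3 of the 20 named with all libraries, B3galnt1, Ssx2ip and Fam160a1. Of the 79, 25 were higher in the mutants (0.173% of all genes) and 54 lower (0.374%). Whether their position has a part in their values was not tested.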

How the data were processed

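Per the labels' protocols, 10 mg of frozen liver was disrupted and 550 ng of DNase-treated RNA was depleted of ribosomal RNA and made into strand-keeping libraries. Per the submitters' processing notes, cutadapt 2.10, STAR 2.7.9a and GRCm39 were used. They counted on an annotation release not given in the sources used here. Deposited values are raw whole-number read counts per gene, and the series table is identical to the reverse-strand column of 16 of 16 samples. GENCODE M21 (GRCm38) named 52081 of 55357 genes by identifier, with biotype and chromosome. Reads not assigned to a gene were left out of library sizes.

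The test was edgeR 4.0.16 (R 4.3.3): filterByExpr on 4 groups (minimum count 10), TMM, and glmQLFit and glmQLFTest on line plus genotype (13 residual degrees of freedom, 12 without AUG_WT replicate 1). P-values are two-sided, adjusted by Benjamini-Hochberg over the genes tested, with a threshold of 0.05. Effects within lines and their difference come from a group-means model. CPM use TMM-scaled sizes. Library properties were compared over 4900 relabelings within lines. Copies were found with blastn. The pipeline was tested on simulated counts.

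Members and lists were chosen with earlier results of these data known. Named genes were, per fit and direction, passing genes filled up to 10 by p among those with the same sign in both lines, then genes separated in both lines, the top genes of the difference, and the member of each list with the smallest p in each direction. Clone names were left out unless they passed, and some genes the rule names are not reported here. Gm29488, AC154912.1, Ifngr1, Phyhd1, Mup18, Map1lc3b, Pot1b, Terf2, Tnf, S100a8, S100a9, Saa1, Cyp7a1, Castor1 and the Kupffer cell genes other than Vsig4 were named after their values were seen. Alternatives were other scalings, filters, DESeq2 1.42.0, limma 3.58.1 voom, the unstranded column, other covariates, replicate blocks and leaving out each library.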

Additional observations from a re-analysis of the deposited data

Results flagged for a closer look

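In groups of 4, a library was picked out when its gap to the nearest other took up nearly all of the group's range. Of 80 groups examined 15 gave such a library. The cut-off picks about 1 in 20 groups by chance only where values are normally distributed. Levels of genes with counts near zero and of the Mup genes are not, and some of these genes were already named for extreme values. The 15 cases are therefore no measure of an excess. AUG_WT replicate 1 had 35.0% of reads outside annotated genes, against 24.2% to 25.6% in the other AUG_WT libraries, and a level of 1.70 for the cytokine and NF-kB list, against -0.25 to -0.19. In del7_WT, replicate 4 stood at -0.15 for that list, against -0.41 to -0.39. For the telomerase list del7 replicate 2 stood at 0.042, against -0.03 in the others.

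AUG_WT replicate 2 had 745 CPM of Mup17 and 579 CPM of Mup9, del7_WT replicate 4 had 80.7 CPM of Mup17, AUG replicate 4 had 3.43 CPM of Mup17, and del7 replicate 2 had 14.2 CPM of Mup16. Mpped2 was 0.807 CPM in del7 replicate 2, against 0.373 to 0.395. The other cases were single libraries with 1 or 2 counts beside zeros: Rps3a3 at 0.0701 CPM in del7_WT replicate 1 and 0.192 in del7 replicate 3, and Hist1h2al at 0.0701 in del7_WT replicate 1, 0.124 in del7 replicate 4 and 0.114 in AUG_WT replicate 3.

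The mutant effect on Rps3a1 differed between the lines, with a log2 difference of -2.63 (edgeR adjusted p = 3.47e-05).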

How the results depend on the processing

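With 16 libraries the count of genes that rose was 2. It was 1 with limma voom, with or without sample quality weights, and without AUG_WT replicates 1 and 2 together (an alternative chosen after seeing the data), 0 without the line covariate, and 0 with equal weighting of lines, where 1 gene fell, Rps3a1. With 15 libraries it was 13 with 9 lower in DESeq2, 1 with voom, 0 with quality weights, 0 without the covariate, and 0 with 1 lower under equal weighting. Without a count filter 3 genes rose, B3galnt1 among them (edgeR adjusted p = 0.0295), and 1 fell. The 13 included Icam1, Cd5l, Lpcat2, Adgre4 and B3galnt1. Leaving out single libraries gave 1 to 3 higher genes in either fit and 0 lower. In the 15-library fit Hist1h2al did not pass without AUG_WT replicate 2, 3 or 4, Lpcat2 passed without AUG replicate 1, Icam1 without AUG replicate 4 and B3galnt1 without del7 replicate 1. For the difference between lines, higher genes numbered 5 in DESeq2, 1 with voom, 2 with quality weights and 0 to 1 with a library left out, with 1 lower gene throughout the last.

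Replicate numbers were not taken to pair the samples: correlations of the same number ran from -0.16 to 0.35 in the AUG line and from 0.09 to 0.28 in the del7 line, and were the highest in 1 of 4 and 3 of 4 cases. The replicate block of line by number gave 1 higher gene in each fit, without Hist1h2al.

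The value of Tnf turned positive with voom (0.41), quality weights (1.17), the replicate blocks (0.52 and 0.081), without AUG_WT replicate 1 (1.30) and without replicates 1 and 2 (1.48). That of Icam1 was -0.032 without the covariate and -0.037 to 0.58 with a library left out. Tnf ranged from -0.76 to 1.30 with a library left out. Mutant minus wild-type differences with a library left out ranged from -867567 to 264997 for total counts, -0.29 to 0.89 percentage points for albumin, -0.57 to 0.13 for mitochondrial, -0.40 to 0.51 for multimapping and -1.84 to -0.04 for reads outside genes. Low counts limit Hist1h2al, Mpped2, B3galnt1, Tnf, S100a8 and S100a9.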
